A study of Arabidopsis thaliana with 6 samples.

Results

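The WRKY transcription factor family of Arabidopsis thaliana was followed in the deposited table of Col-0 and cdc5 libraries. Members were the genes whose name begins with WRKY or whose description names a WRKY transcription factor, which gave 68 of 27947 genes and 105 of 45666 transcripts. This rule did not find WRKY16, WRKY52, WRKY59, WRKY61 or WRKY71. The last member, AT3G56390, is a short gene beside WRKY70 that the table describes as WRKY-like and that has no WRKY number. Polyadenylated RNA was sequenced from wild-type Col-0 (3 libraries) and from the cdc5 mutant (3 libraries), all labelled as rosette leaves, and no treatment is named for either genotype. Neither the age of the plants nor the cdc5 allele is given in the labels. The series title places CDC5 (CELL DIVISION CYCLE 5) in the control of flowering through transcription and splicing of floral repressor genes, and the comparison here asks how the levels and transcripts of the WRKY genes differ between cdc5 and Col-0. CDC5 RNA itself was measured at 38.2, 37 and 36.1 FPKM in Col-0 and 21.8, 21.3 and 21 FPKM in cdc5. The libraries labelled cdc5 thus kept 57.5% of the Col-0 level assigned to this gene. That level does not tell whether the RNA is intact, and the span of CDC5 overlaps a gene on the opposite strand.

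WRKY proteins are plant transcription factors named after the conserved WRKY motif of their DNA-binding domain, which recognises the W-box, a short promoter element built on TTGAC. Group I members carry a pair of these domains, group II members (subgroups IIa to IIe) and group III members carry a single one, and the groups differ in their zinc finger and in other domains. In leaves the family is known for the balance between salicylic acid and jasmonate defence, for the response to microbial patterns downstream of MAP kinases, and for leaf senescence. Some members act in pollen, seeds, trichomes and flowering time. WRKY proteins are partnered by small VQ-motif proteins. CDC5, which resembles MYB factors, belongs to a complex with MOS4 that accompanies the spliceosome and is required for plant immunity.

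A gene's level is the sum of the FPKM of its transcripts, where FPKM scales fragments by transcript length and by the library's total, so levels of different genes are compared per length. Depth estimated from the steps between low values was 19.3 M to 23.9 M fragments for Col-0 libraries and 20.1 M to 25.7 M for cdc5 libraries, and 3 fragments over 1 kilobase then lie between 0.117 and 0.155 FPKM. The labels do not tell whether separate plants or separate extractions gave the 3 libraries of each genotype, and the p-values below therefore refer to the spread among libraries, part of which may be technical. RNA of leaf mesophyll marker genes was abundant, with summed levels of 10636 to 12169 FPKM in Col-0 and 12267 to 12548 FPKM in cdc5. Floral markers were also far above 0 for a sample labelled rosette leaves. The 6 flower markers found in the table summed to 625 to 671 FPKM in Col-0 and 511 to 521 FPKM in cdc5, and the 6 pollen markers to 720 to 746 FPKM and 410 to 415 FPKM. By the test described for WRKY genes, 5 of the 6 pollen markers and 3 of the 6 flower markers were lower in cdc5 and none of either list was higher, where 33.3% of all genes were higher and 22.4% lower. Of 5 tested tapetum and anther markers 3 were lower and 1 higher, with summed levels of 256 to 283 FPKM in Col-0 and 196 to 210.0 FPKM in cdc5. Mesophyll markers gave 4 higher and 1 lower of 7, guard cell markers 2 higher of 3, root markers 1 higher of 3, and carpel and ovule markers 1 higher of 4, or 1 lower with loess scaling. No marker of these lists was at 0 in every library. The part of these floral transcripts in any WRKY result was not tested. In RNA from whole tissue, fewer cells of a type and less RNA per cell cannot be told apart.

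WRKY70 stood above every other member in every library. Its level was 94.1 to 98.1 FPKM in Col-0 and 74.1 to 79.1 FPKM in cdc5. WRKY46 at 46.4 to 48.7 FPKM in Col-0 and 41.5 to 44.3 FPKM in cdc5 and WRKY40 at 42.9 to 48.4 FPKM in Col-0 and 35.2 to 37.8 FPKM in cdc5 followed, and their Col-0 libraries overlapped. WRKY33 at 39.4 to 41 FPKM in Col-0 and 33.2 to 34.8 FPKM in cdc5 and WRKY1 at 30.7 to 32.1 FPKM in Col-0 and 31.5 to 33.6 FPKM in cdc5 came next. In Col-0 the libraries of WRKY40, WRKY33 and WRKY1 did not overlap one another, whereas in cdc5 those of WRKY33 and WRKY1 did. These 5 genes made up 52.4% of the summed WRKY level in Col-0 and 45.9% in cdc5, while the sum itself was 492 to 506 FPKM in Col-0 and 482 to 490 FPKM in cdc5. The 3 that lead the order have defence roles and were lower in cdc5. In Col-0, 13 members were above 10 FPKM. At the other end, 26 members averaged under 1 FPKM over the 6 libraries.

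**Figure D1:**
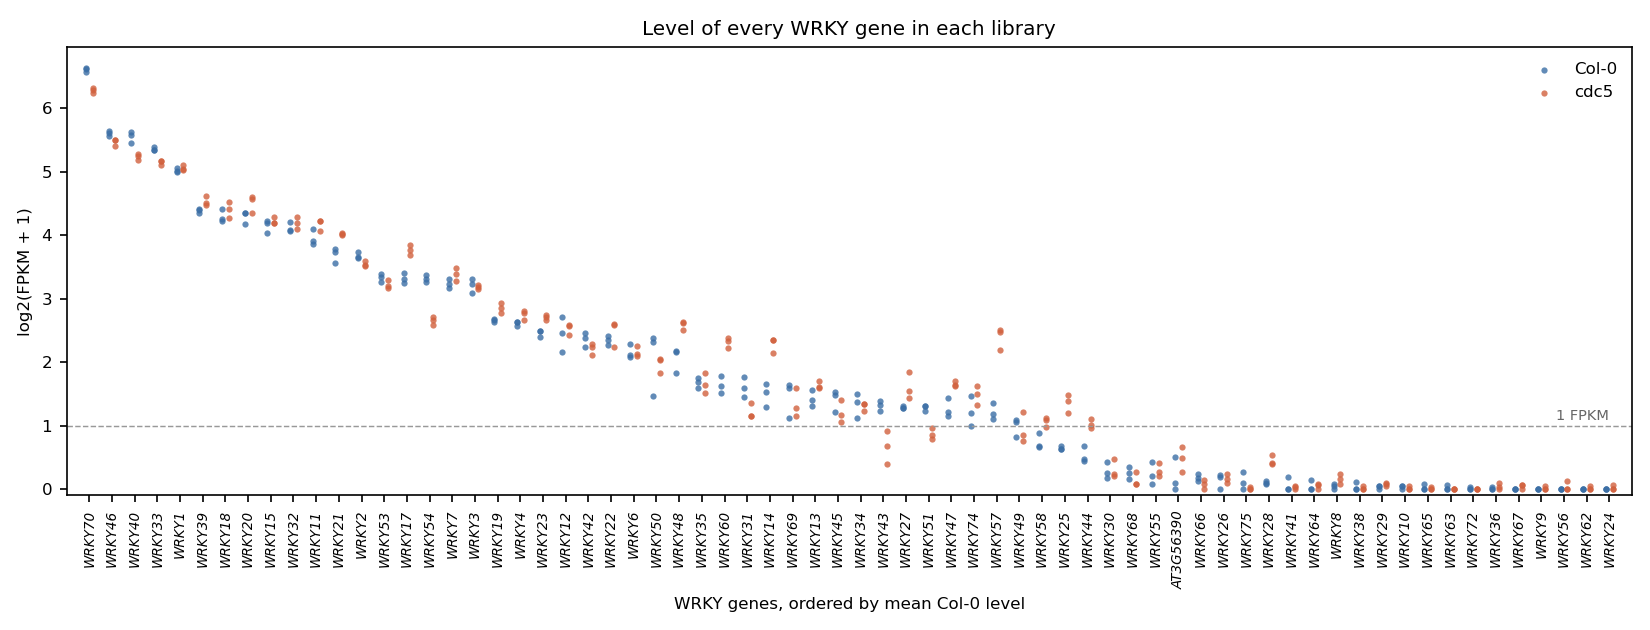
Levels of all 68 WRKY genes on a log2(FPKM + 1) scale, 1 point per library (blue, Col-0; red, cdc5), ordered by mean Col-0 level from left to right. WRKY70 lies above all others, the Col-0 points of WRKY70, WRKY46, WRKY40 and WRKY33 lie above their cdc5 points, and the 26 genes with a mean under 1 FPKM crowd the right end near the dashed line of 1 FPKM and below it.

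The 42 members with a mean of at least 1 FPKM were tested with limma on log2(FPKM + 1), within a fit of all 19778 genes that passed the same filter and with Benjamini-Hochberg adjustment over all of them. At an adjusted p under 0.05, 13 WRKY genes (31% of those tested) were higher in cdc5 and 8 (19%) were lower. Over all genes 33.3% were higher and 22.4% were lower, so the family changed about as often as genes in general. The median log2 fold change, cdc5 minus Col-0, was 0.08 over the 42 WRKY genes and 0.06 over all genes tested. Libraries of the genotypes did not overlap in 23 of the 42 genes (54.8%), against 63.6% of all genes. Most changes were small. At least 2-fold differences between the means were found for 3 of the higher genes, WRKY57, WRKY14 and WRKY25, and 1 of the lower genes, WRKY43. Of these, WRKY25 passed the filter only through cdc5 and WRKY43 only through Col-0, so a difference was built into their being tested. The median Col-0 level was 24.5 FPKM for the lower genes, 4.50 FPKM for the higher genes and 4.13 FPKM for those not called. With cyclic loess scaling 8 WRKY genes were higher and 10 lower, and 26.3% and 26% of all genes, so that calls over all genes were 50.3% higher in place of 59.8%. With adjustment for transcript length and GC content 8 were also higher and 10 lower, with 28% and 25.2% of all genes. WRKY11, WRKY19, WRKY20, WRKY23 and WRKY39 were no longer called higher under either, and WRKY2 was called lower under both.

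**Figure D2:**
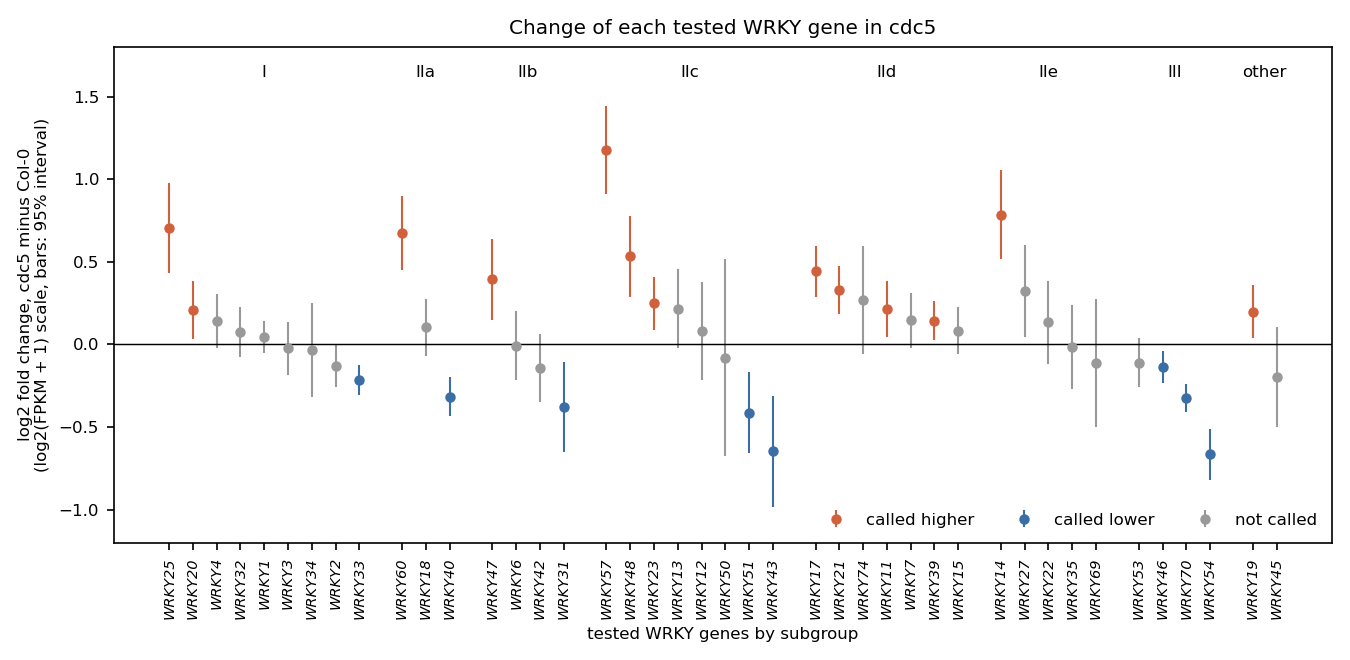
Log2 fold change of the 42 tested WRKY genes (cdc5 minus Col-0, log2(FPKM + 1) scale) by subgroup, with the 95% interval of the fit as bars. Red points were called higher, blue points lower and grey points not called at a limma adjusted p of 0.05. Here 3 of the 4 tested group III genes are lower, no group IId gene is, and WRKY57 is the highest. Over all genes 33.3% were higher and 22.4% lower.

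Subgroup counts stand beside the shares over all genes, 33.3% higher and 22.4% lower. Group III had 3 lower and 0 higher of 4 tested genes, with 9 further members under the filter. Group IId had 4 higher and 0 lower of 7, all of its members being tested. Group I had 2 higher and 1 lower of 9, IIa 1 and 1 of 3, IIb 1 and 1 of 4, IIc 3 and 2 of 8, and IIe 1 and 0 of 5. WRKY19, which was called higher, and WRKY45, which was not called, were kept outside these subgroup counts. With loess scaling all 4 tested group III genes were lower and 2 of the IId genes, WRKY17 and WRKY21, stayed higher. With length and GC adjustment group III again had 3 lower and IId 2 higher. Over all genes loess scaling gave 26.3% higher and 26% lower, and length and GC adjustment gave 28% and 25.2%. No subgroup was tested against other genes.

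Group III holds the salicylic acid regulators of leaves, and WRKY70, WRKY54 and WRKY46 were lower in cdc5. WRKY70 (AT3G56400, chromosome 3, 20908711 to 20910623) activates salicylic acid response genes and represses jasmonate response genes. Its libraries read 98.1, 97 and 94.1 FPKM in Col-0 and 74.1, 77.3 and 79.1 FPKM in cdc5. Every cdc5 library was below every Col-0 library, and the spread within a genotype was small beside the gap. The means were 96.4 ± 2.06 FPKM in Col-0 and 76.8 ± 2.54 FPKM in cdc5 (SD, n = 3 each, as for every ± value here), a log2 fold change of -0.32 with an SE of 0.037 (adjusted p = 0.00013, limma). WRKY54 (AT2G40750, chromosome 2, 17000419 to 17002528), its close relative and its partner in restraining salicylic acid synthesis and senescence, read 8.58, 8.88 and 9.4 FPKM in Col-0 and 5.53, 5.31 and 4.97 FPKM in cdc5. It was again lower in all cdc5 libraries and had the lowest log2 fold change of the 42 genes. Its level in cdc5 was 58.9% of that in Col-0, a log2 fold change of -0.67 with an SE of 0.068 (adjusted p = 6.7e-05, limma). WRKY46 (AT2G46400, chromosome 2, 19043411 to 19044955), which acts with WRKY70 in basal resistance, read 47.8, 46.4 and 48.7 FPKM in Col-0 and 44, 41.5 and 44.3 FPKM in cdc5. The groups did not overlap, but the gap was narrower than the spread within cdc5. The log2 fold change of -0.14 with an SE of 0.042 (adjusted p = 0.021, limma) lost its call without Col-0 replicate 3 (limma adjusted p = 0.07) and without cdc5 replicate 2 (limma adjusted p = 0.079), the highest of its alternatives. WRKY53, a senescence activator, overlapped between the genotypes at 8.57 to 9.51 FPKM in Col-0 and 7.94 to 8.79 FPKM in cdc5, and its log2 fold change was -0.11 (limma adjusted p = 0.18), or -0.23 (limma adjusted p = 0.015) with loess scaling. Its annotated span overlaps a gene on the opposite strand, as do those of WRKY33, WRKY40, WRKY1, WRKY2, WRKY4, WRKY19, WRKY34 and WRKY69, and the labels do not say whether fragments were counted by strand.

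The 3 group IIa genes encode proteins that bind one another and damp basal defence, and they took 3 different courses. WRKY40 (AT1G80840, chromosome 1, 30383561 to 30385499), a gene induced rapidly by pathogens and wounding, read 48.4, 42.9 and 46.6 FPKM in Col-0 and 35.2, 37.1 and 37.8 FPKM in cdc5. All cdc5 libraries were lower, and the level reached 79.8% of Col-0, a log2 fold change of -0.32 with an SE of 0.053 (adjusted p = 0.001, limma). WRKY60 (AT2G25000, chromosome 2, 10629662 to 10631413) went the other way, at 2.07, 1.86 and 2.42 FPKM in Col-0 and 4.01, 3.68 and 4.2 FPKM in cdc5. No library of one genotype reached the other's, and the means of 2.12 ± 0.283 FPKM in Col-0 and 3.96 ± 0.26 FPKM in cdc5 gave a log2 fold change of 0.67 and an SE of 0.098 (adjusted p = 0.00048, limma). WRKY18 (AT4G31800, chromosome 4, 15382777 to 15385100) read 17.7, 20.3 and 18 FPKM in Col-0 and 21.8, 20.3 and 18.3 FPKM in cdc5. Its gene level did not pass the test, with overlapping libraries and a log2 fold change of 0.10 (95% interval -0.07 to 0.27, limma adjusted p = 0.28), but its transcripts differed.

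WRKY33 (AT2G38470, chromosome 2, 16108235 to 16110766), the group I factor that MPK3 and MPK6 phosphorylate and that switches on camalexin synthesis, read 41, 39.4 and 39.5 FPKM in Col-0 and 34.7, 33.2 and 34.8 FPKM in cdc5. It was lower in every cdc5 library, by a modest margin that was wide beside the spread, with a log2 fold change of -0.22 and an SE of 0.04 (adjusted p = 0.0017, limma). Length and GC adjustment gave -0.33 (limma adjusted p = 0.00014). WRKY51 (AT5G64810, chromosome 5, 25908247 to 25909881), which with WRKY50 represses jasmonate signalling, read 1.47, 1.47 and 1.35 FPKM in Col-0 and 0.941, 0.81 and 0.73 FPKM in cdc5. Both it and WRKY43 (AT2G46130, chromosome 2, 18957212 to 18957925), a small factor linked to seed fatty acids and germination, were under 1 FPKM in cdc5 and passed the filter only through Col-0. A difference was thus built into the testing of both genes. WRKY43 read 1.5, 1.6 and 1.35 FPKM in Col-0 and 0.318, 0.605 and 0.881 FPKM in cdc5. The cdc5 libraries of WRKY43 were all below those of Col-0 and spread widely among themselves, with an average at 40.5% of Col-0. The log2 fold changes were -0.41 (limma adjusted p = 0.011) for WRKY51 and -0.65 (limma adjusted p = 0.0054) for WRKY43. WRKY31 (AT4G22070, chromosome 4, 11691172 to 11694582), a IIb gene, read 2.03, 1.72 and 2.4 FPKM in Col-0 and 1.23, 1.56 and 1.22 FPKM in cdc5. Its groups came close without overlapping, and its log2 fold change of -0.38 (limma adjusted p = 0.025) lost its call without Col-0 replicate 1 (limma adjusted p = 0.057) or 3 (0.09) and without cdc5 replicate 1 (0.071) or 3 (0.067).

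WRKY57 (AT1G69310, chromosome 1, 26054275 to 26058383), a IIc factor known for drought tolerance and for restraining jasmonate-induced senescence, had the highest log2 fold change of the 42 tested members. Its libraries read 1.56, 1.26 and 1.15 FPKM in Col-0 and 4.54, 4.66 and 3.57 FPKM in cdc5. Every cdc5 library was far above every Col-0 library, and cdc5 replicate 3 was the lowest of the cdc5 group. The means of 1.32 ± 0.213 FPKM in Col-0 and 4.26 ± 0.6 FPKM in cdc5 differed 3.22-fold, a log2 fold change of 1.18 with an SE of 0.12 (adjusted p = 5.9e-05, limma), with limma adjusted p between 3.4e-05 and 0.00049 over 13 alternatives. WRKY48 (AT5G49520, chromosome 5, 20090648 to 20093346), an activator that weakens basal resistance, is also of IIc and read 3.45, 2.53 and 3.5 FPKM in Col-0 and 5.12, 4.64 and 5.19 FPKM in cdc5. It was higher in all cdc5 libraries, with Col-0 replicate 2 lower than the other Col-0 libraries, and had a log2 fold change of 0.53 and an SE of 0.11 (adjusted p = 0.003, limma).

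WRKY14 (AT1G30650, chromosome 1, 10868218 to 10871297), a IIe gene, read 1.89, 2.16 and 1.44 FPKM in Col-0 and 3.41, 4.06 and 4.11 FPKM in cdc5. The genotypes did not overlap and the means of 1.83 ± 0.365 FPKM in Col-0 and 3.86 ± 0.392 FPKM in cdc5 gave a log2 fold change of 0.79 and an SE of 0.12 (adjusted p = 0.00059, limma). WRKY25 (AT2G30250, chromosome 2, 12903208 to 12905338), a group I relative of WRKY33 that acts in heat and salt tolerance, read 0.599, 0.555 and 0.542 FPKM in Col-0 and 1.78, 1.28 and 1.61 FPKM in cdc5. Its Col-0 libraries lay close together under 1 FPKM, and it passed the filter only through cdc5, so a difference was built into its being tested. The ratio of means was 2.76, with a log2 fold change of 0.70 and an SE of 0.12 (adjusted p = 0.0011, limma). WRKY47 (AT4G01720, chromosome 4, 744804 to 748554), of subgroup IIb, read 1.69, 1.32 and 1.21 FPKM in Col-0 and 2.09, 2.13 and 2.23 FPKM in cdc5. It was higher in every cdc5 library, with a log2 fold change of 0.39 and an SE of 0.11 (adjusted p = 0.014, limma).

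Group IId members carry a calmodulin-binding domain next to the WRKY domain, and WRKY17 and WRKY11 are known as negative regulators of resistance to Pseudomonas syringae. WRKY17 (AT2G24570, chromosome 2, 10437353 to 10439469) read 8.44, 9.61 and 8.91 FPKM in Col-0 and 13.3, 12.6 and 11.8 FPKM in cdc5. All cdc5 libraries were higher, 1.4-fold between the means, with a log2 fold change of 0.44 and an SE of 0.068 (adjusted p = 0.00064, limma). WRKY21 (AT2G30590, chromosome 2, 13033418 to 13035797) read 12.7, 10.8 and 12.2 FPKM in Col-0 and 15.2, 15.3 and 15.1 FPKM in cdc5. Its cdc5 libraries were nearly identical and above those of Col-0, with a log2 fold change of 0.33 and an SE of 0.065 (adjusted p = 0.0025, limma). WRKY11 and WRKY39 were called by a narrow margin. In both, the only transcript called higher was one that holds an intron, and the spliced transcripts were not called, as described below. WRKY11 read 16.2, 13.5 and 14 FPKM in Col-0 and 17.6, 15.8 and 17.7 FPKM in cdc5 and its libraries overlapped, with a log2 fold change of 0.21 (limma adjusted p = 0.038). It was not called without Col-0 replicate 2 (limma adjusted p = 0.12) or 3 (0.11) or without cdc5 replicate 1 (0.11) or 3 (0.11). WRKY39, a heat-responsive gene, read 20.0, 19.5 and 20.2 FPKM in Col-0 and 21.6, 21.2 and 23.5 FPKM in cdc5, with a log2 fold change of 0.14 (limma adjusted p = 0.043). It was not called without any single Col-0 library (limma adjusted p = 0.075, 0.1 and 0.07 for replicates 1, 2 and 3) nor without cdc5 replicate 1 (0.066) or 3 (0.14).

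**Figure D3:**
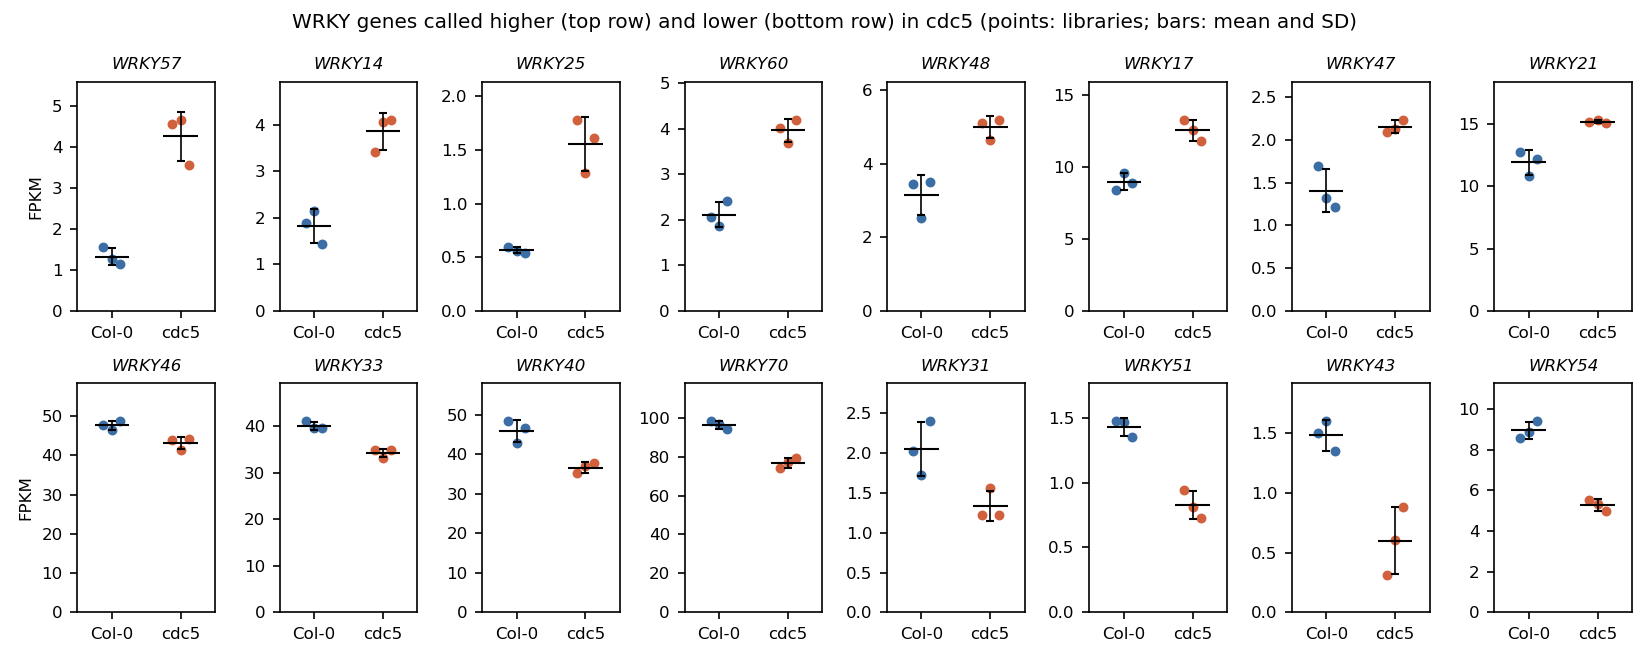
FPKM of the 8 WRKY genes with the highest log2 fold change (top row) and the 8 with the lowest (bottom row), among those called and with no overlap between libraries. Points are libraries (blue, Col-0; red, cdc5), horizontal lines are means and bars are SDs over n = 3; in every panel the points of one genotype lie above all those of the other, WRKY57 from 1.56 or less in Col-0 to 3.57 or more in cdc5.

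The other called genes were WRKY20, WRKY19 and WRKY23. WRKY23, a IIc gene of auxin-dependent development, was at 4.25 to 4.64 FPKM in Col-0 and 5.35 to 5.67 FPKM in cdc5 without overlap, with a log2 fold change of 0.25 (limma adjusted p = 0.016), and limma adjusted p = 0.053 without cdc5 replicate 1. WRKY20 at 17.1 to 19.4 FPKM in Col-0 and 19.3 to 23.2 FPKM in cdc5 overlapped and gave 0.21 (limma adjusted p = 0.047). It lost its call without any single Col-0 library (limma adjusted p = 0.062, 0.06 and 0.15 for replicates 1, 2 and 3) and without cdc5 replicate 1 (0.14) or 2 (0.15). WRKY19, whose protein joins an immune receptor, a WRKY domain and a kinase domain, gave 0.20 (limma adjusted p = 0.038) and turned to -0.03 with length and GC adjustment. It was not called without any single Col-0 library (limma adjusted p = 0.071, 0.084 and 0.071) nor without cdc5 replicate 2 (0.13) or 3 (0.08).

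The 21 tested genes that were not called had log2 fold changes from -0.20 to 0.32. The highest was WRKY27, at 1.41, 1.48 and 1.42 FPKM in Col-0 and 2.58, 1.93 and 1.7 FPKM in cdc5, where every cdc5 library was higher than Col-0 but the cdc5 libraries spread widely (limma adjusted p = 0.051). It was called without cdc5 replicate 3, at 0.41 (limma adjusted p = 0.028). WRKY74, WRKY22 and WRKY50 were each called without a single library as well. The values were 0.39 for WRKY74 without Col-0 replicate 2 (limma adjusted p = 0.049), 0.25 for WRKY22 without cdc5 replicate 1 (limma adjusted p = 0.047) and -0.37 for WRKY50 without Col-0 replicate 2 (limma adjusted p = 0.02). WRKY50 read 3.96, 1.76 and 4.18 FPKM in Col-0 and 2.55, 3.11 and 3.11 FPKM in cdc5, and that Col-0 library lay well below the other two. WRKY2, a regulator of seed germination and pollen development, was lower in every cdc5 library at 11.4 to 12.2 FPKM in Col-0 and 10.4 to 11 FPKM in cdc5, with a log2 fold change of -0.13 (limma adjusted p = 0.079). With loess scaling it gave -0.25 (limma adjusted p = 0.0048) and with length and GC adjustment -0.30 (limma adjusted p = 0.0018).

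The tested members listed for a published link to flowering time or to pollen, WRKY12, WRKY13 and WRKY34, did not pass the test, nor did WRKY2, a pollen factor too, which was called lower with either scaling. WRKY12 and WRKY13, which act in opposite directions on flowering in short days, read 3.47, 4.51 and 5.51 FPKM in Col-0 and 4.97, 4.91 and 4.37 FPKM in cdc5 for WRKY12 and 1.94, 1.63 and 1.47 FPKM in Col-0 and 2.24, 2.06 and 2.03 FPKM in cdc5 for WRKY13. All cdc5 libraries of WRKY13 were above Col-0 and those of WRKY12 lay within the Col-0 range. The log2 fold changes were 0.08 for WRKY12 (95% interval -0.22 to 0.38) and 0.22 for WRKY13 (95% interval -0.02 to 0.45), with limma adjusted p = 0.63 and 0.11. WRKY34, a pollen factor, read 1.59, 1.83 and 1.17 FPKM in Col-0 and 1.52, 1.52 and 1.33 FPKM in cdc5, and its log2 fold change of -0.03 had a 95% interval of -0.32 to 0.25 (limma adjusted p = 0.83). The genotypes overlapped although pollen markers were lower in cdc5. WRKY75, which promotes flowering, and WRKY63, an abscisic acid response gene, reached at most 0.209 and 0.0416 FPKM. WRKY71, also listed for flowering, was not among the members found, so its level is not given.

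Of the 26 members that were not tested, the highest mean was 0.963 FPKM, and 13 were under the level of 3 fragments in every library, so that no difference was detectable at this depth. None was at 0 in all libraries, and 4 reached 3 fragments in every library. One of these, WRKY44 (TTG2, a trichome and seed coat factor), read 0.391, 0.596 and 0.358 FPKM in Col-0 and 1.01, 1.14 and 0.951 FPKM in cdc5. WRKY58 read 0.587, 0.833 and 0.6 FPKM in Col-0 and 1.17, 0.973 and 1.12 FPKM in cdc5. For both genes all cdc5 libraries were higher than Col-0, and without the filter both were called, with limma adjusted p = 0.0051 and 0.033. WRKY28, an activator of salicylic acid synthesis, read 0.0576, 0.0725 and 0.0906 FPKM in Col-0 and 0.442, 0.326 and 0.313 FPKM in cdc5 and was called as well (limma adjusted p = 0.0034), but only 4 of its 6 libraries reached 3 fragments. Without the filter 13 WRKY genes were higher, 10 of them the same genes. WRKY49 and WRKY30, the others with 3 fragments in every library, overlapped between the genotypes. They were not called without the filter (limma adjusted p = 0.8 and 0.89).

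WRKY transcripts were tested in the same way, in a fit of 27441 transcripts. Of 105 WRKY transcripts 54 were tested, 11 were higher (17.8% of all transcripts were) and 6 were lower (13.2% of all). Fewer were called higher without a single library, 7 without Col-0 replicate 1, 7 without Col-0 replicate 2, 6 without cdc5 replicate 1, 7 without cdc5 replicate 2 and 7 without cdc5 replicate 3. Isoform usage, the split of a gene's signal among its transcripts, was tested with limma's diffSplice. The 18 members with more than 1 listed transcript included 7 that could be tested, and WRKY18, WRKY39 and WRKY11 were called (21.8% of all genes tested). The intron-holding transcripts of WRKY39, WRKY11 and WRKY7 entered this test only through cdc5. A difference was built into the test for these genes, so the calls are not read against that percentage. The transcript that gained share in WRKY39 and WRKY11, and 1 of those in WRKY18, holds an intron that the gene's other transcripts splice out.

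WRKY18 had the widest change in its split. Transcript AT4G31800.1 read 15, 15 and 13.5 FPKM in Col-0 and 0.0813, 0.228 and 5.33 FPKM in cdc5. It was the main transcript of every Col-0 library and nearly absent from cdc5 replicates 1 and 2, with cdc5 replicate 3 between. Transcript AT4G31800.2 read 0.984, 2.72 and 2.07 FPKM in Col-0 and 12.2, 10.3 and 6.53 FPKM in cdc5. Transcript AT4G31800.3 read 1.66, 2.55 and 2.43 FPKM in Col-0 and 9.57, 9.73 and 6.41 FPKM in cdc5. Both were higher in every cdc5 library, and cdc5 replicate 3 was the nearest to Col-0 for both. The share of AT4G31800.1 in the gene's FPKM went from 78 ± 6.07% to 10.2 ± 16.4%, that of AT4G31800.2 from 10.2 ± 4.09% to 47.5 ± 10.5% and that of AT4G31800.3 from 11.8 ± 2.13% to 42.3 ± 6.56% (limma diffSplice adjusted p = 0.00032, between 1.6e-06 and 0.0086 over the alternatives). The log2 fold changes were -2.93 (limma adjusted p = 0.03) for AT4G31800.1, 1.88 (limma adjusted p = 0.01) for AT4G31800.2 and 1.57 (limma adjusted p = 0.0041) for AT4G31800.3. The call of AT4G31800.1 was lost without any single Col-0 library (limma adjusted p = 0.083, 0.083 and 0.08 for replicates 1, 2 and 3) and without cdc5 replicate 1 (0.082) or 2 (0.088), with log2 fold changes from -2.98 to -2.48. In the TAIR10.1 annotation from RefSeq, AT4G31800.2 and AT4G31800.3 begin 856 and 420 bases downstream of AT4G31800.1. Their coding regions span 738 and 717 bases in place of 933. AT4G31800.3 holds the 104-base intron at chr4:15384412-15384515 on the plus strand and its coding region ends inside it. The run from the first intron base to that stop codon is shown because it is the sequence by which this transcript's protein end differs, with the stop codon in capitals.
WRKY18 intron to stop: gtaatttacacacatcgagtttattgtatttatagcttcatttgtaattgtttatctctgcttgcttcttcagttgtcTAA

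WRKY11, WRKY39 and WRKY7 belong to group IId, and each lists a transcript that holds the second of the gene's 2 coding introns. For WRKY11 the holding transcript AT4G31550.3 read 0.449, 0.525 and 0.911 FPKM in Col-0 and 3.33, 2.17 and 3.01 FPKM in cdc5. Every cdc5 library exceeded every Col-0 library, and its share went from 4.39 ± 1.91% to 16.6 ± 2.64% (limma diffSplice adjusted p = 0.0016), a log2 fold change of 1.24 with an SE of 0.2 (adjusted p = 0.0079, limma). For WRKY39 the holding transcript AT3G04670.2 read 0.156, 0.383 and 0.553 FPKM in Col-0 and 2.41, 3.63 and 4.1 FPKM in cdc5. It too was higher in all cdc5 libraries, and its share went from 1.83 ± 0.983% to 15.3 ± 3.55% (limma diffSplice adjusted p = 0.0015), a log2 fold change of 1.67 with an SE of 0.22 (adjusted p = 0.0044, limma). Both transcripts were under 1 FPKM in Col-0 and passed the filter only through cdc5. A higher level in cdc5 was thus built into their being tested, for level and for isoform usage. The spliced transcripts AT4G31550.1, AT4G31550.2 and AT3G04670.1 were not called, with log2 fold changes of 0.05, 0.02 and -0.06 (limma adjusted p = 0.81, 0.93 and 0.41). For WRKY7 the holding transcript AT4G24240.2 read 0.529, 0.739 and 1.36 FPKM in Col-0 and 2.51, 1.51 and 3 FPKM in cdc5. All cdc5 libraries were higher, the lowest only just above Col-0 replicate 3, and the share went from 10.2 ± 4.48% to 24.5 ± 6.27%. Neither its level, at 0.83 (limma adjusted p = 0.065), nor the gene's isoform usage (limma diffSplice adjusted p = 0.057) passed the test.

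**Figure D4:**
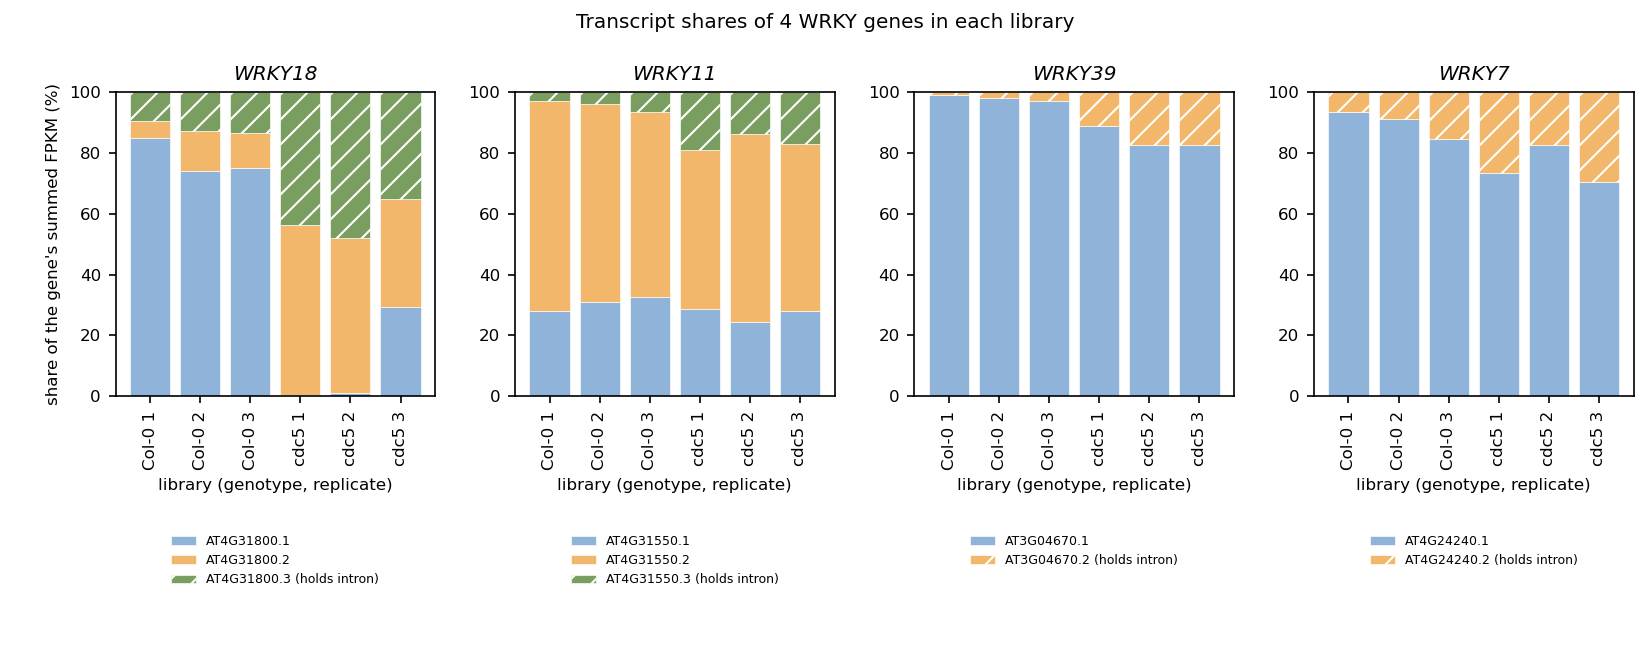
Share of each listed transcript in the summed FPKM of WRKY18, WRKY11, WRKY39 and WRKY7, in percent, 1 bar per library. Hatched segments are transcripts that hold an intron; they are larger in every cdc5 bar than in any Col-0 bar, and AT4G31800.1 of WRKY18 falls from 74.1% or more in Col-0 to 29.2% or less in cdc5.

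The held introns are at chr4:15290246-15290332 (WRKY11, minus strand, 87 bases), chr3:1266678-1266764 (WRKY39, minus strand, 87 bases) and chr4:12572934-12573286 (WRKY7, plus strand, 353 bases), in TAIR10.1 coordinates, which match the table's span for 67 of the 68 members. In all 3 the coding region of the holding transcript ends inside the intron, after 4 bases in WRKY11 and WRKY7 and after 28 bases in WRKY39. The 5' splice sites of this second intron in the 7 IId genes are shown because they let the 3 genes with a listed holding transcript be set beside the 4 without one. Each line has 10 exon bases and 10 intron bases, with the first 2 intron bases in capitals.
WRKY11 donor: cacacccacgGTaaatatcc
WRKY39 donor: cgcatccacgGTatatatat
WRKY7 donor: ctcatcctcgGTaattattt
WRKY17 donor: cacatccacgGTaactatcg
WRKY21 donor: cttatcccagGTatacactt
WRKY74 donor: ctcatcctagGTaaaataac
WRKY15 donor: cacatccaagGTaaactata
The matching 3' splice sites of the 3 held introns and of WRKY17, a close relative of WRKY11, have 18 intron bases ending in capitals and 10 exon bases.
WRKY11 acceptor: ttgttttttgcgatccAGtggttactac
WRKY39 acceptor: ttgttgtttcggttgcAGgggatactat
WRKY7 acceptor: gtgtaatggttatgacAGgggatattac
WRKY17 acceptor: tgtttttgttgatttcAGgggttattac
All 7 introns begin with GT and the 4 shown here end with AG. WRKY17, WRKY21, WRKY74 and WRKY15 have a single listed transcript each, so retention of their second intron cannot be seen in this table. From the first intron base to the stop codon the holding transcript of WRKY39 reads gtatatatataaacatcttctggtaTAA.

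Over the family, 19 transcripts of 12 genes hold an intron that another transcript of the gene splices out. Of these, 9 were tested, 4 were higher (those of WRKY18, WRKY39 and WRKY11 and AT4G12020.5 of WRKY19) and 0 were lower. Among all intron-holding transcripts tested, 21.1% were higher and 3.71% lower, with a median log2 fold change of 0.40 over 5127, against 9.6% and 10% with a median of -0.0050 over 11138 other transcripts of genes with several. Higher levels of intron-holding transcripts were thus the commoner direction over the whole table, among transcripts that passed the filter. Of the 9 WRKY transcripts, those of WRKY39, WRKY11 and WRKY7 averaged under 1 FPKM in Col-0 and passed the filter only through cdc5. A higher level in cdc5 was built into their being tested, so no direction is read from the 9. The difference between the WRKY share and that of all intron-holding transcripts was not tested. Counting those not tested, 13 of the 19 had a higher mean in cdc5, 6 had all cdc5 libraries above Col-0 and 2 had all below. The matching counts over all intron-holding transcripts are not given here, so no direction is read from the 19 either. AT4G12020.5 read 0.734, 1.09 and 1.31 FPKM in Col-0 and 1.84, 2.4 and 2.33 FPKM in cdc5, with no overlap between genotypes. It gave 0.65 (limma adjusted p = 0.039) and lost its call without any single library (limma adjusted p from 0.054 to 0.11), with log2 fold changes from 0.54 to 0.74. WRKY42 transcript AT4G04450.2 read 0.151, 0.108 and 0.122 FPKM in Col-0 and 0.299, 0.43 and 0.366 FPKM in cdc5, below the filter but higher in every cdc5 library.

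Some splits turned on a library rather than a genotype. WRKY20 lists 7 transcripts, and AT4G26640.2 read 15.8, 15.1 and 1.87 FPKM in Col-0 and 14.2, 14.3 and 0.0208 FPKM in cdc5. It led in replicates 1 and 2 of both genotypes and was low in replicate 3 of both. WRKY1 transcript AT2G04880.1, which holds a 72-base intron, read 5.58, 5.41 and 6.63 FPKM in Col-0 and 15.2, 4.78 and 6.05 FPKM in cdc5. The high value was cdc5 replicate 1, and without it the log2 fold change of 0.34 became -0.10. WRKY57 transcript AT1G69310.4 read 0.125, 0.0904 and 0.0847 FPKM in Col-0 and 2.11, 2.49 and 0.405 FPKM in cdc5, above Col-0 in all cdc5 libraries but far lower in cdc5 replicate 3 than in the other two. The gene level of WRKY57 had no such split.

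In the authors' deposited table, 13 of the 105 WRKY transcripts (12.4%) are marked as significant, with 12.2% of all transcripts marked. Of the marks in the authors' deposited table, 11 are higher in cdc5 and 2 lower, from 11 genes, and a fold of at least 2 is needed for a mark. The marks over all transcripts were not split by direction here, so no direction is read from these counts. The authors' deposited table marks the holding transcripts of WRKY18, WRKY39, WRKY11, WRKY7, WRKY19 and WRKY42, with folds of 3.87, 9.30, 4.52, 2.68, 2.1 and 2.87. The authors' deposited table also marks the transcripts of WRKY14, WRKY25 and WRKY28, with folds of 2.11, 2.76 and 4.90, and AT1G69310.4 of WRKY57, with a fold of 16.7. WRKY70, WRKY40, WRKY33 and WRKY54 are not marked, their folds being under that limit.

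Since WRKY proteins can act on one another's promoters, the 300 bases before each annotated start were searched on both strands for TTGACC and TTGACT, the letters of the W-box. At least 1 match was found for 29 of the 68 members (42.6%), against 32.1% of all 25013 protein-coding genes, and at least 2 for 10 members (14.7%), against 7.79%. Matches were present in 7 of the 13 higher genes, 1 of the 8 lower genes, 6 of the 21 not called and 15 of the 26 not tested. Among those with matches, the windows of WRKY19, WRKY25, WRKY45 and WRKY26 run into another annotated gene. WRKY33 was the lower gene with matches and had 3, and WRKY17 was the only higher gene with 2. Their windows are shown for that reason, in transcript direction, with the matches in capitals (chr2:16107935-16108234 on the plus strand for WRKY33 and chr2:10439470-10439769 on the minus strand for WRKY17, TAIR10.1 from RefSeq).
WRKY33 promoter: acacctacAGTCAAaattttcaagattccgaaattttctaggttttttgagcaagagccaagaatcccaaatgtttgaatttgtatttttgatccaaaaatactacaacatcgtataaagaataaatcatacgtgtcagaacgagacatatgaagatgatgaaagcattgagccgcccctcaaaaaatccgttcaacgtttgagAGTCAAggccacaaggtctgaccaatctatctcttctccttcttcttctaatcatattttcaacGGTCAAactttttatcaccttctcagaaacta
WRKY17 promoter: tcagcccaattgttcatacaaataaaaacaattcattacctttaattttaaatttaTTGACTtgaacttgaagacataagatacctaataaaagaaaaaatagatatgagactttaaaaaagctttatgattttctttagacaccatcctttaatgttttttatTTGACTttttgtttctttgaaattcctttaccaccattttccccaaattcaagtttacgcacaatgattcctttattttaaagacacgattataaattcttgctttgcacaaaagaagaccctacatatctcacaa
The WRKY33 matches begin 292, 96 and 32 bases before the start and are all on the reverse strand of the transcript. Those of WRKY17 begin 244 and 136 bases before it, on the transcript's strand. WRKY70, WRKY54, WRKY60 and WRKY57 have no match in this window.

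Gene lists around the family are read against the shares over all genes, 33.3% higher and 22.4% lower, or 26.3% and 26% with loess scaling. Of 12 tested genes of the MAP kinase cascade, which acts on WRKY factors, 4 were higher, 4 were lower and 4 were not called, close to those shares, and 2 and 4 were called with loess scaling. MPK3, the kinase that with MPK6 phosphorylates WRKY33, read 84.8, 80.2 and 85.4 FPKM in Col-0 and 44.7, 45.2 and 44.2 FPKM in cdc5. The groups were far apart, and the cdc5 mean was 53.6% of Col-0, a log2 fold change of -0.89 with an SE of 0.038 (adjusted p = 5e-07, limma). MKK9, an upstream kinase of MPK3, was also lower, at 42.2 to 44.5 FPKM in Col-0 and 31.5 to 33.4 FPKM in cdc5, with -0.41 (limma adjusted p = 7.7e-05). MPK4, which forms a complex with MKS1 and WRKY33, was higher at 16.6 to 17.8 FPKM in Col-0 and 22.7 to 22.9 FPKM in cdc5, with 0.39 (limma adjusted p = 0.00016). MPK6 overlapped between the genotypes at 28.6 to 31.3 FPKM in Col-0 and 29.3 to 31.5 FPKM in cdc5, and its log2 fold change was 0.04 (limma adjusted p = 0.53).

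Among the VQ-motif partners of WRKY factors 8 were tested, 4 were lower, 0 higher and 4 not called, where 22.4% of all genes were lower and 33.3% higher. VQ20, the partner of WRKY2 and WRKY34 in pollen, read 14.3, 15.4 and 13.4 FPKM in Col-0 and 9.41, 7.56 and 8.65 FPKM in cdc5, lower in every cdc5 library, with -0.69 (limma adjusted p = 0.00016). MKS1 read 6.85, 9.19 and 7.73 FPKM in Col-0 and 5.04, 5.92 and 5.4 FPKM in cdc5 and SIB1, a partner of WRKY33, read 15.9, 17.2 and 16.5 FPKM in Col-0 and 12, 13.9 and 14.2 FPKM in cdc5. Both were lower in all cdc5 libraries, with log2 fold changes of -0.46 (limma adjusted p = 0.0047) and -0.29 (limma adjusted p = 0.0076). VQ20 was lower together with pollen markers given above, and their part in its change was not tested.

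Of 4 tested camalexin and ethylene genes of the WRKY33 pathway 1 was higher and 1 lower, near the shares over all genes (33.3% and 22.4%), and 2 and 1 with loess scaling. CYP79B2, which makes the indole precursor of camalexin, read 2.41, 2.98 and 2.46 FPKM in Col-0 and 6.21, 5.94 and 6.06 FPKM in cdc5, higher in every cdc5 library, with 0.97 (limma adjusted p = 3.1e-05). ACS6, an ethylene synthesis enzyme, was lower at 110.0 to 114 FPKM in Col-0 and 81.6 to 87.8 FPKM in cdc5, with -0.40 (limma adjusted p = 4.2e-05). CYP79B3, the close relative of CYP79B2, gave 0.24 (limma adjusted p = 0.069). GGP1 gave 0.05 (limma adjusted p = 0.21), or 0.09 (limma adjusted p = 0.046) with loess scaling. The remaining 4 listed genes were under the filter. Of these, PAD3, the last enzyme of camalexin synthesis, read 0, 0.119 and 0 FPKM in Col-0 and 0.442, 0.344 and 0.311 FPKM in cdc5. ACS2, another ethylene synthesis enzyme, read 0.127, 0.210 and 0.207 FPKM in Col-0 and 0.652, 0.549 and 0.327 FPKM in cdc5. Both were higher in every cdc5 library and were called without the filter (limma adjusted p = 0.0036 and 0.02). CYP71A13 overlapped between the genotypes, at 0.453, 0.664 and 0.913 FPKM in Col-0 and 0.609, 0.588 and 0.454 FPKM in cdc5. It was not called without the filter (limma adjusted p = 0.52). CYP71A12 reached at most 0.0675 FPKM.

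Salicylic acid genes gave 2 higher and 3 lower of 10 tested, beside 33.3% and 22.4% of all genes. They gave 0 higher and 4 lower with loess scaling, beside 26.3% and 26% of all genes, and 0 and 5 with length and GC adjustment, beside 28% and 25.2%. SARD1, an activator of ICS1, read 17.3, 18.2 and 16.8 FPKM in Col-0 and 11.5, 10.8 and 12.4 FPKM in cdc5, and NIMIN1, an NPR1-binding protein, read 17.4, 23.1 and 16.1 FPKM in Col-0 and 8.4, 9.42 and 10.4 FPKM in cdc5. Both were lower in every cdc5 library, with log2 fold changes of -0.56 (limma adjusted p = 0.00011) and -0.92 (limma adjusted p = 0.0014). ICS1, the salicylic acid synthesis enzyme, was higher at 3.34 to 4.02 FPKM in Col-0 and 4.43 to 5.18 FPKM in cdc5, with 0.30 (limma adjusted p = 0.023). That call was lost without Col-0 replicate 1 (limma adjusted p = 0.074), without cdc5 replicate 1 (0.078) or 3 (0.061), and with both scalings (0.077 and 0.11). PR1, the usual marker of salicylic acid defence, reached at most 0.393 FPKM.

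The pattern-triggered immunity markers gave 0 higher and 3 lower of 5 tested, beside 33.3% and 22.4% of all genes. PHI-1 read 11.6, 12.1 and 11.8 FPKM in Col-0 and 6.7, 7.35 and 8.23 FPKM in cdc5, with -0.61 (limma adjusted p = 0.00018). CML12, a touch-induced calmodulin-like gene, and RBOHD, the NADPH oxidase of the immune oxidative burst, were lower at 81% and 87.9% of Col-0 (limma adjusted p = 0.00055 and 0.0036). FRK1 and NHL10 reached at most 0.285 and 0.101 FPKM. Of 10 tested senescence genes 3 were higher and 3 lower, near the shares over all genes (33.3% and 22.4%). SAG20 read 113, 108 and 106 FPKM in Col-0 and 54, 53.6 and 55.8 FPKM in cdc5, 50.1% of Col-0, with -0.98 (limma adjusted p = 3e-07). SEN4 and SAG14 were lower too, at 71.7% and 74.6% of Col-0 (limma adjusted p = 3.2e-05 and 5.9e-05), and SAG12, the late senescence marker, reached at most 0.226 FPKM. SAG101, SAG13 and ANAC029, a senescence activator, were higher at 164%, 146% and 123% of Col-0 (limma adjusted p = 0.0037, 0.0088 and 0.0046), although ANAC029 was not called with loess scaling (limma adjusted p = 0.061). Of 6 other known targets 1 was lower, FT, the flowering signal that WRKY75 activates, at 11, 11 and 11.9 FPKM in Col-0 and 6.9, 6.15 and 7.2 FPKM in cdc5 and -0.67 (limma adjusted p = 8.2e-05). ABI5 and TTG1 were not called, at -0.24 (limma adjusted p = 0.077) and 0.14 (limma adjusted p = 0.083). ABI5 was called without Col-0 replicate 2, at -0.32 (limma adjusted p = 0.039), and TTG1 without cdc5 replicate 3, at 0.20 (limma adjusted p = 0.015).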

How the data were processed

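The authors deposited a table of FPKM per transcript and library, with a fold, a p-value and a q-value per transcript that were used only where the authors' deposited table is named. A log2 column of the authors is the logarithm of that fold and was not used. Per the submitters' processing notes, DESeq2, edgeR, StringTie 1.3.4d, HISAT2 2.0.4 and cutadapt 1.9 were used, in roles that are not stated. The notes give a genome build of another species. The table's spans match TAIR10.1 for 97.8% of 27696 nuclear genes. The deposited values are not counts, and steps between low values lay within 0.1 of whole fragments in 59.9% to 65.3% of cases per library, too few to recover counts. The resulting depths are estimates, and floors cover counting error only.

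Libraries were grouped by genotype label and numbered by title. The titles of the mutant libraries can also be read as allele names. Summed FPKM of genes, and FPKM of transcripts, were kept where they averaged 1 FPKM or more and compared with limma 3.58.1 in R 4.3.3 on log2(FPKM + 1), with trend and robust moderation. Fold changes on this scale understate those of low genes. With 3 libraries against 3, an exact permutation test cannot give a p below 0.10. The diffSplice test (Simes p per gene) made more false calls than its nominal rate on simulated data. Transcripts that hold an intron were found from RefSeq exons. Same-numbered libraries of the genotypes did not deviate together (correlations 0.04, 0.06 and 0.00), so they were not paired. Alternatives were another pseudocount and filter, loess scaling, length and GC adjustment, plain moderation, a replicate block, no overlapping genes and each library left out. Precision weights for diffSplice were added after the data were seen.

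The members, gene lists and tests were chosen with earlier results of these data known. Values per library are given for called members without overlap (the 8 highest and 8 lowest log2 fold changes), members linked to flowering, those called for isoform usage, the 3 leading IIa and III genes, and the 3 genes of each pathway list with the smallest adjusted p. Others were chosen after their values were seen. Python 3.11.15 with matplotlib 3.10.9, numpy 2.4.6 and pandas 2.3.3 made tables and plots.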

Additional observations from a re-analysis of the deposited data

How the results depend on the processing

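Of 857 values of single WRKY and listed genes under the alternatives, 776 kept their direction and their side of the threshold, 15 passed only under the alternative, 48 no longer passed and 18 changed sign. For transcripts these were 275, 4, 24 and 19. The cause of these changes was not tested, except that the 5 FPKM filter leaves fewer genes to test. WRKY genes called higher were 13, and 7 with that filter, 8 with loess scaling and 8 with length and GC adjustment. Those called lower were 8, and 5 with that filter. Over all genes, 6594 were higher and 4433 lower of 19778 tested, and 5343 and 3520 of 14727 with that filter. Transcripts called higher were 11, and 4 with that filter, 7 with loess scaling and 6 to 8 with a library left out. Those called lower were 4 to 5 with a library left out, against 6. Genes called for isoform usage were 3, and 6 without a filter, 1 with the 5 FPKM filter and 4 with precision weights. Under the alternatives, the matching counts over all transcripts and for isoform usage over all genes are not given here. The median log2 fold change of 0.08 was 0.028 without a filter, 0.0042 with loess scaling, 0.044 with length and GC adjustment, 0.13 without overlapping genes and 0.062 to 0.10 with a library left out.

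With the replicate block, which uses replicate numbers that do not pair the libraries, 12 WRKY genes were higher and 7 lower, 6 transcripts were higher and 4 lower, and 3 genes were called for isoform usage. Over all 19778 genes tested, 6345 were higher and 4289 lower with the block. Not every library correlated best with its own number.

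Among the log2 fold changes printed above, some changed sign. With loess scaling they became -0.0054 for WRKY12, -0.031 for AT4G31550.1 and -0.055 for AT4G31550.2. With length and GC adjustment they became -0.031 for MPK6, -0.032 for WRKY19, 0.050 for WRKY34 and -0.079 for AT4G31550.2. With a library left out they ran from -0.061 to 0.21 for WRKY12, from -0.14 to 0.050 for WRKY34, from -0.37 to 0.082 for WRKY50, from -0.10 to 0.64 for AT2G04880.1, from -0.0097 to 0.15 for AT4G31550.1 and from -0.050 to 0.13 for AT4G31550.2.

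Depth limits the 13 members under 3 fragments in every library, for which no difference could be seen. The labels do not say how fragments shared by transcripts or by overlapping genes were assigned, and transcript splits rest on that assignment.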
